A study of Mus musculus with 24 samples.

Results

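In a set of huntingtin knock-in mouse embryonic stem cells, the array titled replicate 3 was set against the arrays titled replicates 1 and 2 of the same line. The lines were Q20, Q50 and Q111, which gave 3 arrays against 6, or 9 of the 24 arrays of the series. Each line entered as a block, and the Q91 line was left out of the comparison and is given beside it. A probe set was used where at least 3 of the 24 arrays showed a log2 expression value of 5 or above, which kept 17980 of 45037 probe sets and 9511 genes. Of these genes, 541 lie on chromosome 8 and are given apart, because their low values in replicate 3 were part of the reason for the split. A further 391 chromosome 8 genes on the array stayed under the filter. Both the split and the chromosome were thus chosen from these values, so the values below describe the arrays and are no test of the split.

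The cells were undifferentiated 129/Sv embryonic stem cells, and total RNA of each sample was hybridised to 1 Affymetrix mouse array. The lines carry a lengthened CAG repeat in Hdh, the older name of Htt, on 1 of the 2 alleles. The other allele has 7 repeats in every line. The longer allele had 16 repeats in Q20, 45 in Q50 (43 in its replicate 3), 85 in Q91 and 111 in Q111. The controls (6 arrays) had 7 repeats on both alleles, and the Hdh knock-out (6 arrays) is labelled null for the gene. A free-text field of the labels names these last groups the other way round, and they are used here only as reference levels. The titles name the arrays of a group as biological replicates. The labels do not say whether a line is 1 clone, or whether replicates of equal number share a culture period, a passage or a hybridisation. Replicate 3 and any such shared circumstance therefore cannot be told apart, and the spread between arrays may be partly technical.

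Embryonic stem cells are cultured from the inner cell mass of the early embryo and keep the ability to form all tissues through a network of transcription factors that includes Pou5f1, Sox2 and Nanog. In long culture such cells can gain or lose whole chromosomes, and an extra chromosome 8 is a recurrent change in mouse lines, with a growth advantage over the unchanged cells. When a whole chromosome changes in number, most of its genes shift together in RNA by an amount close to the change in copies, whatever their function. The number of chromosomes was not measured here. For scale, a step from 3 copies to 2 equals -0.58 in log2, and a step from 2 copies to 1 equals -1.

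Chromosome 8 genes that passed the filter were lower in replicate 3 of all 3 lines, over the whole chromosome and at low, middle and high levels among them. The median difference over the 541 genes, replicate 3 minus the mean of replicates 1 and 2, was -0.52 in log2, so that replicate 3 held 70.0% of the level of the other replicates. By line the median difference was -0.53 in Q20, -0.45 in Q50 and -0.54 in Q111. The difference lay below 0 for 509 genes and above 0 for 32. Replicates 1 and 2 of a line lay close together on the same genes. Replicate 2 minus replicate 1 had a median of -0.07 in Q20, -0.00 in Q50 and -0.02 in Q111. The interquartile range of the genes was -0.73 to -0.31 for the replicate 3 difference in Q20, -0.75 to -0.19 in Q50 and -0.77 to -0.33 in Q111.

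Set against the 6 controls, replicates 1 and 2 were at the control level and replicate 3 was below it. The chromosome 8 median over the control mean was 0.12 and 0.03 in Q20 replicates 1 and 2 and -0.40 in replicate 3. In Q50 it was 0.12 and 0.10, then -0.32. In Q111 it was 0.09 and 0.05, then -0.41. The 6 arrays of replicates 1 and 2 held 0.09 ± 0.04 (SD, n = 6), the 3 arrays of replicate 3 held -0.38 ± 0.05 (SD, n = 3), and the groups did not overlap. The 6 controls were at 0.06, 0.10, 0.10, -0.30, 0.03 and 0.00, and the knock-outs were between 0.04 and 0.19. Control replicate 4 was thus the only one of these 12 arrays near the level of replicate 3. That control also lay low on other chromosomes, at -0.09 to -0.24 outside chromosome 8 and Y. Set against its own median over the other chromosomes, its chromosome 8 level was -0.17, against -0.47 to -0.42 in the 3 arrays of replicate 3.

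**Figure D1:**
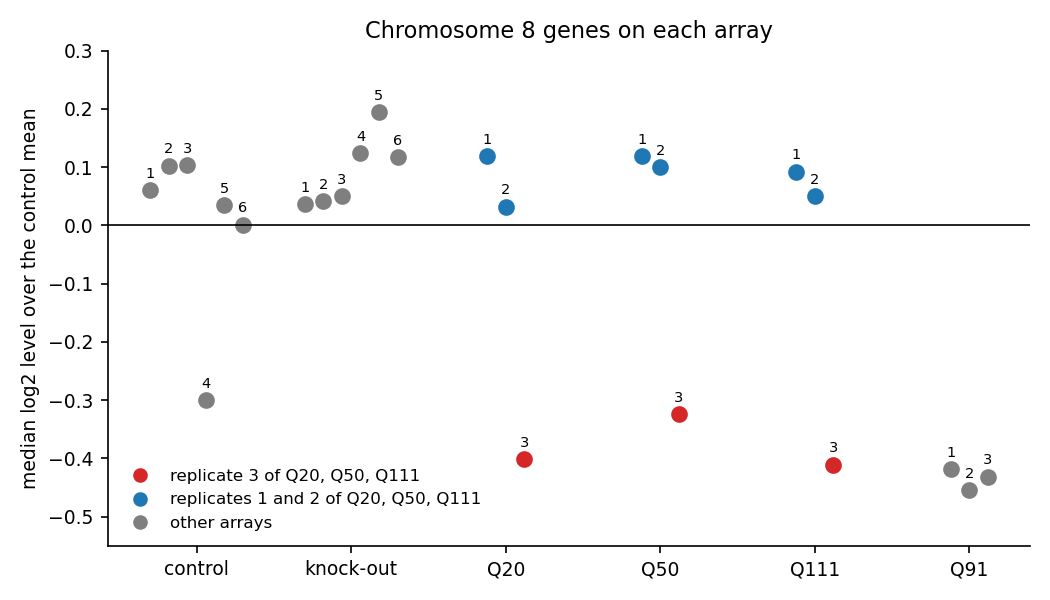
Median log2 level of the 541 chromosome 8 genes on each of the 24 arrays, over the mean of the 6 controls. Each point is 1 array and the digit above it is its replicate number; replicate 3 of Q20, Q50 and Q111 (-0.40, -0.32 and -0.41) lies with the 3 Q91 arrays (-0.42 to -0.45), while replicates 1 and 2 (0.03 to 0.12) lie among the controls.

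The Q91 arrays are not part of the comparison, though the line was set aside with its values known. Their chromosome 8 medians were -0.42, -0.45 and -0.43 over the control mean for replicates 1, 2 and 3, a mean of -0.44 ± 0.02 (SD, n = 3). All 3 lay below all 6 controls and all 6 knock-outs. Within Q91, replicate 3 differed from replicates 1 and 2 by a median of 0.01 over the same genes, so the low level there was not tied to the replicate number. In the controls replicate 3 stood 0.02 above the mean of replicates 1 and 2 on chromosome 8, and in the knock-out it stood 0.01 above it.

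No other chromosome moved downward in replicate 3 of all 3 lines. Over the 18 other autosomes and X, the pooled median difference ran from 0.01 on chromosome 3 to 0.18 on chromosome 1. Leaving chromosomes 1 and 11 aside as well, the medians ran from -0.04 to 0.05 in Q20, from 0.04 to 0.21 in Q50 and from 0.00 to 0.09 in Q111. Every one of these chromosomes stood above 0 in Q50 replicate 3. Set against the other chromosomes of the same array, the chromosome 8 difference was -0.51 in Q20, -0.60 in Q50 and -0.65 in Q111.

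Chromosome 1 varied between arrays in the same manner as chromosome 8, but without following the replicate number. Its median over the control mean was -0.42, -0.46 and -0.44 in Q20, 0.13, -0.41 and -0.32 in Q50, and -0.49, -0.48 and 0.21 in Q111. In Q91 it was 0.16, -0.45 and -0.41. Each of these lines but Q20 therefore had 1 array near the control level and 2 arrays below it, and the high array was replicate 1 in Q50 and Q91 and replicate 3 in Q111. The replicate 3 difference of chromosome 1 was -0.02 in Q20, -0.19 in Q50, 0.68 in Q111 and -0.30 in Q91. Chromosome 11 stood 0.39 to 0.49 above the control mean on all arrays of Q20 and Q111 and between -0.11 and -0.01 on those of Q50. In Q91 it was at 0.47 on replicate 1 and at -0.08 on replicates 2 and 3.

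**Figure D2:**
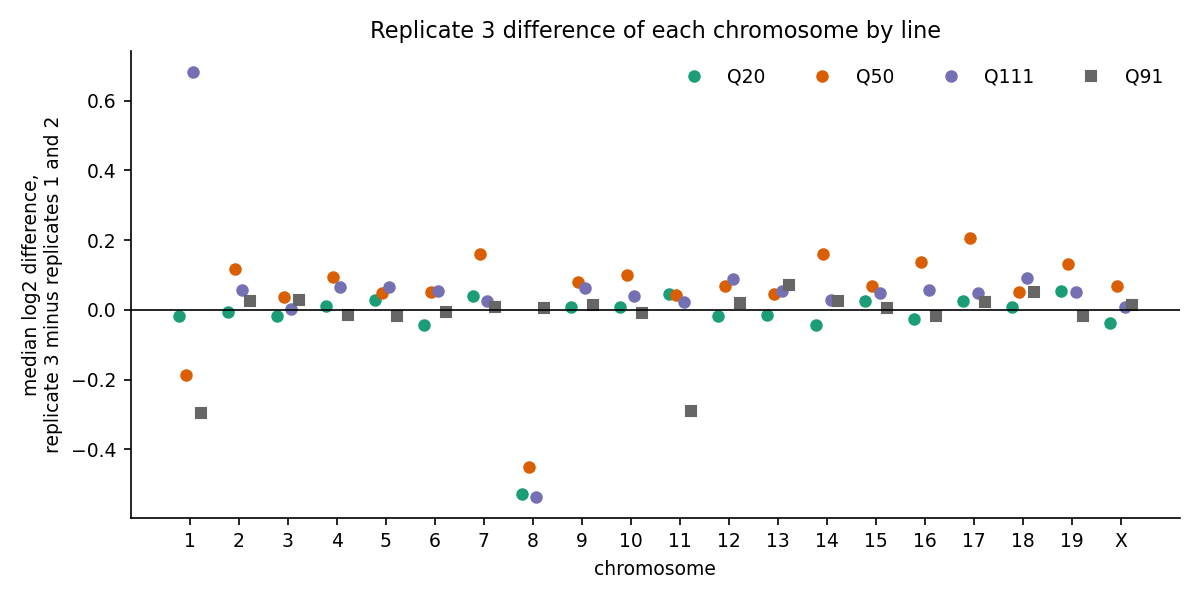
Median log2 difference of each chromosome, replicate 3 minus the mean of replicates 1 and 2, by line; chromosome Y with 3 tested genes is left out. Chromosome 8 lies at -0.53, -0.45 and -0.54 in Q20, Q50 and Q111 and at 0.01 in Q91, while chromosome 1 stands at 0.68 in Q111 alone.

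The shift spanned chromosome 8 from end to end. The 541 genes were put in gene order and divided into 10 bins of 54 or 55 neighbours. The pooled median difference was lowest in the bin from Dusp4 to Palld, at -0.62, and highest in the bin from Sf3b3 to Banp, at -0.42. In single lines the bins ran from -0.70 to -0.37 in Q20, from -0.69 to -0.27 in Q50 and from -0.67 to -0.45 in Q111. In Q91 the same bins lay between -0.06 and 0.07. No bin was thus at the level of replicates 1 and 2 in any of the 3 lines. Chromosome 1 was likewise raised from end to end in Q111 replicate 3, with bins from 0.58 to 0.91.

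**Figure D3:**
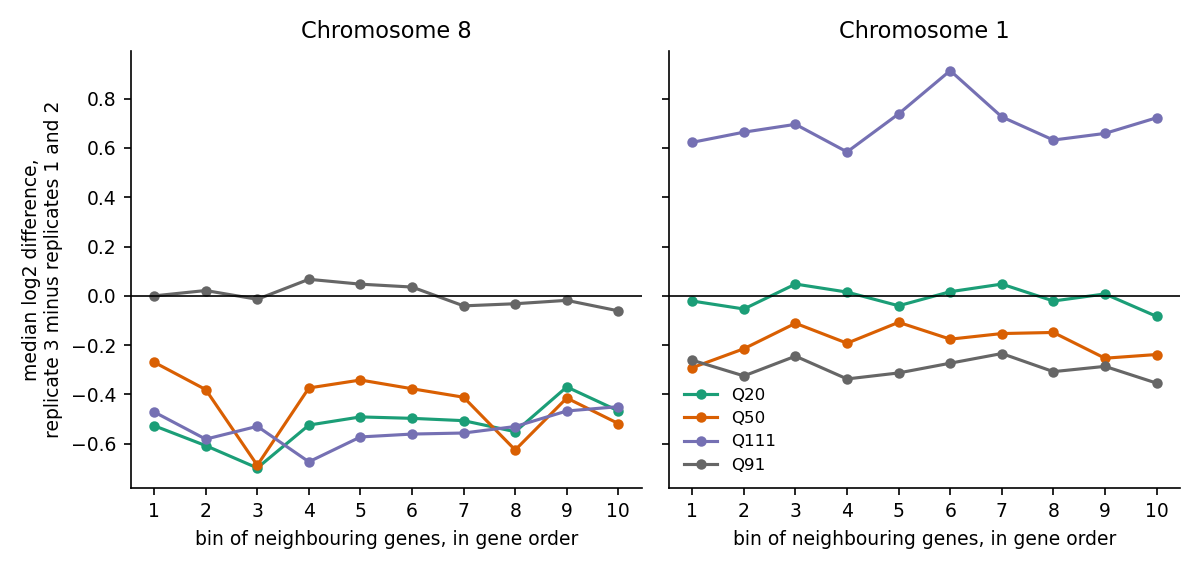
Median log2 difference, replicate 3 minus the mean of replicates 1 and 2, in 10 bins of neighbouring genes along chromosomes 8 and 1, by line. On chromosome 8 all bins of Q20, Q50 and Q111 lie between -0.70 and -0.27 and those of Q91 between -0.06 and 0.07; on chromosome 1 the bins of Q111 lie between 0.58 and 0.91.

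Among the chromosome 8 genes that passed the filter, the size of the shift hardly varied with the level of the gene. With no filter on low values the chromosome 8 median was smaller, at -0.29. The 181 chromosome 8 genes with the lowest values had a median difference of -0.53, the 180 in the middle -0.52 and the 180 with the highest values -0.50. The spread between genes was wider at low levels, with an interquartile range of -0.83 to -0.22, than at high levels, with one of -0.63 to -0.38. A difference of -1 or lower was reached by 44 genes, and 465 lay between that and 0.

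To name single genes, limma was fitted to the 9 arrays with line as a block, and a gene was called where its Benjamini-Hochberg adjusted p over all 17980 probe sets was under 0.05. This threshold serves only to describe, since the same contrast chose the arrays. It called 563 probe sets (3.13%), 383 of them lower (2.13%) and 180 higher (1.00%), with 4023 at an unadjusted p under 0.05. By gene it called 317 of 9511 (3.33%), 205 lower (2.16%) and 112 higher (1.18%). Of these, 159 of the 541 on chromosome 8 were lower (29.4%) and 0 higher. Among the 8970 genes outside chromosome 8, 158 were called (1.76%), 46 lower (0.513%) and 112 higher (1.25%). Replicate 3 lay below both other replicates in each of the 3 lines for 381 chromosome 8 genes (70.4%) and for 672 genes elsewhere (7.49%), or 11.1% of all genes. It lay above both in each line for 1 chromosome 8 gene (0.185%), Gabarapl2, and for 1237 genes elsewhere (13.8%), or 13.0% of all genes. The genes nearest the threshold were Pik3r2 (-0.63) and Gm2381 (0.57) inside it, and Scai (0.77) and Fbxo8 (-0.56) outside. At the filter on low values, Atg4a and Pif1 stood just inside and just outside, with differences of -0.14 and -0.28.

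The number of calls rested on single arrays. It was 0 without Q20 replicate 1, 2 or 3 and without Q111 replicate 1 or 2, where 3098 to 3811 probe sets still had an unadjusted p under 0.05. It was 96 without Q111 replicate 3, 142 without Q50 replicate 2, 231 without Q50 replicate 3 and 1086 without Q50 replicate 1. The chromosome 8 median moved far less, from -0.54 to -0.48 over the same 9 omissions.

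Chromosome 8 genes of unlike function went the same way. Of 80 tested genes in 6 lists of chromosome 8 genes drawn up by role, 31 were called lower and 0 higher, beside 29.4% called lower over all 541 chromosome 8 genes. The difference was below 0 for 75 of the 80, beside 509 of 541, and in 64 replicate 3 lay below both other replicates in every line, beside 70.4%.

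Among transcription and chromatin genes, 3 of 14 fell past the threshold and the median was -0.57. Thap11, a zinc finger protein needed for the self-renewal of embryonic stem cells, fell by 0.63 in log2 (SE 0.10), and Cbfb, the partner subunit of the RUNX factors, by 0.81 (SE 0.11). Ctcf, the insulator protein, differed by -0.44 and was not called. Zfp42, known as Rex1 and a standard marker of the naive pluripotent state, stood apart. Its values were 14.60, 14.57 and 14.55 in Q20 replicates 1 to 3, 14.95, 14.62 and 14.48 in Q50, and 14.42, 14.47 and 14.72 in Q111. Its difference was -0.02 (SE 0.13), and replicate 3 was lowest in Q20 and Q50 but highest in Q111.

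Genes of DNA replication and repair had a median of -0.51, and 4 of 10 were called lower. Hmgb2, a chromatin protein abundant in dividing cells, held 15.32, 15.47 and 14.73 in Q20, 15.47, 15.50 and 14.96 in Q50, and 15.27, 15.37 and 14.63 in Q111. Replicate 3 was lowest in each line, and the fall was 0.63 (SE 0.09). Terf2ip of the telomere-binding complex fell by 0.53 (SE 0.09), Gins3 of the replicative helicase by 0.54 (SE 0.11) and Chtf8, a clamp loader subunit, by 0.81 (SE 0.15). Mcm5, another helicase subunit, differed by -0.31 and was not called.

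RNA processing and turnover showed the same step, with 6 of 13 called lower and a median of -0.51. Farsa, a subunit of phenylalanyl-tRNA synthetase, held 11.53, 11.39 and 10.84 in Q20, 11.79, 11.86 and 11.08 in Q50, and 11.51, 11.56 and 10.72 in Q111. The drop was similar in the 3 lines, and the fall over all was 0.72 (SE 0.09). Cnot7, a deadenylase that shortens mRNA tails, fell by 0.69 (SE 0.10), and Polr2c, a subunit of RNA polymerase II, by 0.51 (SE 0.09).

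Protein folding and turnover had the most calls for its size, 8 of 12, with a median of -0.62. Herpud1, an endoplasmic reticulum protein of the unfolded protein response, fell by 1.11 (SE 0.16). Psmd7 of the proteasome lid fell by 0.61 (SE 0.11), the immunoproteasome subunit Psmb10 by 0.83 (SE 0.14), the deubiquitinase Usp10 by 0.69 (SE 0.09) and the cochaperone Dnajb1 by 0.49 (SE 0.09). Lamp1, a lysosomal membrane protein, differed by -0.24 and was not called.

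Metabolic and stress genes had a median of -0.47, with 6 of 17 called lower. Gsr, which regenerates reduced glutathione, held 10.89, 10.99 and 10.07 in Q20, 10.87, 10.72 and 9.90 in Q50, and 10.73, 10.74 and 9.89 in Q111. No replicate 3 value reached any value of replicates 1 and 2, and the fall was 0.87 (SE 0.09). Dhodh, an enzyme of pyrimidine synthesis, fell by 0.76 (SE 0.10) and the mitochondrial channel Vdac3 by 0.57 (SE 0.10). The metallothioneins Mt1 and Mt2, which bind metals and are induced by stress, did not share the step. Mt1 held 12.50, 12.36 and 11.75 in Q20, 11.38, 11.58 and 12.51 in Q50, and 12.22, 12.18 and 12.62 in Q111. It was lowest in replicate 3 of Q20 and highest in replicate 3 of Q50 and Q111, with a pooled difference of 0.26 (SE 0.27), and Mt2 followed the same pattern with 0.11 (SE 0.24). Nqo1, an antioxidant enzyme, likewise differed by 1.79 in Q50 but by -0.58 in Q20 and -1.21 in Q111.

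Adhesion and signalling genes spread the most, with a median of -0.81 and 4 of 14 called lower. Cdh1, the E-cadherin that holds stem cell colonies together, had values of 14.05, 14.16 and 13.47 in Q20, 13.86, 14.24 and 12.99 in Q50, and 14.23, 14.24 and 13.52 in Q111. Replicate 3 was lowest in every line, the fall was 0.80 (SE 0.13), and the control mean was 13.26 ± 0.20 (SD, n = 6). Fgfr1, the receptor for FGF4 in these cells, fell by 1.09 (SE 0.15). Smad1, which carries BMP signals, fell by 0.91 (SE 0.13), and Lpl, a lipase, by 1.05 (SE 0.22). For Fgfr1, Smad1 and Lpl the step in Q91 was -0.42, -0.35 and -0.26, where chromosome 8 as a whole did not differ between replicates.

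The 5 chromosome 8 genes with the lowest differences were Acta1 (-2.70, SE 0.95), Cpe (-2.38, SE 0.47), Dusp4 (-2.20, SE 0.55), Mfap3l (-2.14, SE 0.59) and Lpar2 (-1.78, SE 0.19). Cpe and Lpar2 were called, and Acta1, Dusp4 and Mfap3l were not. These sizes exceed the median of the chromosome, and they varied between lines. Dusp4, a phosphatase that limits ERK signalling, differed by -3.98 in Q20, -1.96 in Q50 and -0.67 in Q111. Cpe, a carboxypeptidase that trims peptide hormones, held 9.44, 9.48 and 5.80 in Q20, 7.39, 8.74 and 7.06 in Q50, and 9.78, 9.61 and 7.22 in Q111. Replicate 3 was lowest each time, by the least in Q50. In Q91, differences in the same direction remained for Acta1 (-1.99), Cpe (-1.19), Dusp4 (-0.99) and Lpar2 (-0.90), and Mfap3l was at 0.03.

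At the other end stood Gm21283 (2.49), Nkx6-3 (1.77), Gm9564 (0.97), Mt4 (0.81) and Cdyl2 (0.62), none of them called. Gm21283 was at 7.29 and 7.53 in replicate 3 of Q20 and Q111 and between 3.45 and 3.68 on the other 7 of the 9 arrays. Nkx6-3, a homeobox gene, was at 6.99 in Q50 replicate 3 and between 1.35 and 1.62 on the other 8. Its control mean was 6.28 ± 0.51 (SD, n = 6). The low values of both genes lie under a log2 value of 5, where signal was not told from background, so the size and order of these differences are not settled.

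Outside chromosome 8 the called genes were spread over the genome, with 1 on chromosome 1 and between 4 and 17 on each other chromosome from 2 to X. More were higher (112) than lower (46), and each lay beyond both other replicates in every line. The median difference over all 8970 genes was 0.06, with 59.5% above 0.

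The largest rise was that of Calml4, a calmodulin-like protein. It held 6.68, 6.54 and 10.06 in Q20, 7.95, 6.47 and 11.01 in Q50, and 6.61, 6.15 and 8.94 in Q111. The rise was 3.27 (SE 0.35), and the control mean of 6.99 lay with replicates 1 and 2. All 3 Q91 arrays were high, at 9.36, 9.37 and 8.74, and Calml4 was thus high on the same 6 knock-in arrays on which chromosome 8 was low.

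The next largest rises were mostly from a low level. Timm8a2, related to mitochondrial import factors, held 3.76, 4.16 and 6.96 in Q20, 4.22, 4.11 and 5.42 in Q50, and 3.90, 4.06 and 7.58 in Q111, a rise of 2.62 (SE 0.38). Cyct, the testis form of cytochrome c, held 6.78, 6.92 and 9.11 in Q20, 7.58, 6.41 and 8.31 in Q50, and 7.67, 7.99 and 10.07 in Q111, a rise of 1.94 (SE 0.29). Gtsf1, a cofactor of the piRNA pathway, rose by 2.03 (SE 0.22) and Gpat2, a mitochondrial acyltransferase, by 1.93 (SE 0.39). For Timm8a2, Gtsf1, Gpat2, as for Thy1, the mean of replicates 1 and 2 lay under a log2 value of 5, where signal was not told from background, so the size of these rises is not settled. In Q91 Timm8a2, Cyct, Gtsf1 and Gpat2 were highest in replicate 1 (5.99 for Timm8a2, 8.28 for Cyct, 5.29 for Gtsf1 and 6.50 for Gpat2), not in replicate 3.

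The other large rises were in Spock2, an extracellular proteoglycan, at 1.56 (SE 0.29), Patl2, an RNA-binding protein of oocytes, at 1.51 (SE 0.22), Plekhg1 at 1.49 (SE 0.26), Gpa33, a cell surface antigen, at 1.46 (SE 0.17), and Thy1, a cell surface glycoprotein, at 1.41 (SE 0.25). Gpa33 was the most even of these, with line differences of 1.75, 1.30 and 1.35 in Q20, Q50 and Q111. Replicate 3 was at 9.88, 9.65 and 9.47 and the 6 other arrays between 7.90 and 8.62.

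The largest fall was in Pkia, an inhibitor of protein kinase A. It held 7.32, 7.52 and 4.13 in Q20, 4.20, 5.72 and 3.96 in Q50, and 6.50, 7.01 and 4.30 in Q111, a fall of 2.25 (SE 0.46). Replicate 3 and Q50 replicate 1 were near the control mean of 4.11, which is under the filter's level, and the other 5 arrays stood clearly above it. The size of this fall is therefore not settled either.

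Hmga2, a chromatin protein of embryonic cells, fell by 1.44 (SE 0.22), and all 3 of its probe sets were called lower, between -2.43 and -1.44. Its values were 9.11, 9.23 and 7.40 in Q20, 8.35, 8.80 and 6.75 in Q50, and 9.22, 9.16 and 8.48 in Q111. Fndc4 fell by 1.26 (SE 0.14), with replicate 3 at 7.18, 6.06 and 6.83 and the other 6 arrays between 7.25 and 8.43. The Wnt receptor Fzd2 fell by 1.38 (SE 0.27), the growth cone protein Gap43 by 1.30 (SE 0.22) and the scaffold protein Mpdz by 1.62 (SE 0.32). Greb1l fell by 1.47 (SE 0.29), Epdr1 by 1.42 (SE 0.23) and Nhsl1 by 1.23 (SE 0.17). The giant muscle protein Ttn fell by 1.33 (SE 0.22). Fzd2, Fndc4, Ttn, Epdr1 and Gpa33 each have 1 further probe set that went the same way without being called, at -0.78, -0.32, -0.78, -0.33 and 1.14.

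**Figure D4:**
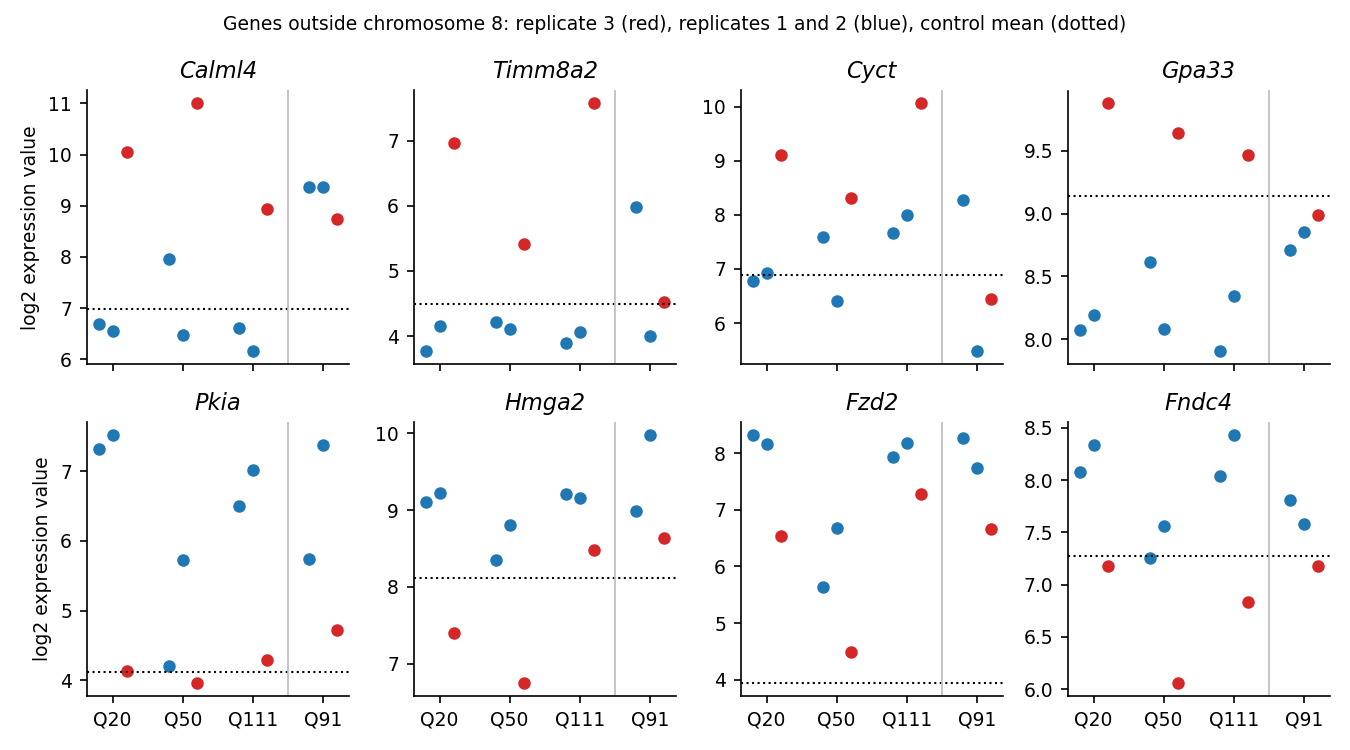
Log2 expression values on each knock-in array for 4 genes called higher (top) and 4 called lower (bottom) in replicate 3 outside chromosome 8; the dotted line is the mean of the 6 controls and the grey line sets off Q91. Calml4 is at 8.94 to 11.01 in replicate 3 of Q20, Q50 and Q111 and at 6.15 to 7.95 in the other replicates, while in Q91 all arrays are at 8.74 or above.

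Relative to the controls, the genes called lower and higher outside chromosome 8 differed. Of the 46 called lower, replicates 1 and 2 lay above the control mean in 43, with a median of 0.82, and replicate 3 lay at a median of -0.04. Of the 112 called higher, replicates 1 and 2 lay below the control mean in 86, with a median of -0.45, and replicate 3 stood above it by a median of 0.42. Over all 8970 genes outside chromosome 8, replicates 1 and 2 lay below the control mean in 50.2%. Part of the position of the called genes follows from their choice by the same values of replicates 1 to 3. In Q91, 36 of the 46 had a replicate 3 difference below 0 (78.3%), against 53.8% of all genes outside chromosome 8. Of the 112, 64 were above 0 in Q91 (57.1%), against 46.2% of all genes outside chromosome 8.

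Genes that hold stem cells in the naive state were mostly higher in replicate 3. Of 26 tested pluripotency genes, 5 were called higher and 0 lower, and 22 stood above 0, beside 1.18% called higher and 56.5% above 0 over all genes. Their median difference was 0.38, beside 0.05 over all genes, and it was 0.35 in Q20, 0.30 in Q50 and 0.45 in Q111. In Q91 it was 0.17. Fibroblast markers lay the other way in the pooled difference, with 12 of 13 tested below 0 and a median of -1.05. By line their medians were -1.68 in Q20, -0.53 in Q50 and -0.06 in Q111, where 6 of 13 stood above 0. The part of the fibroblast markers in the pluripotency values was not tested. Fgf4, the growth factor through which these cells prime themselves for differentiation, held 9.49, 9.23 and 10.60 in Q20, 10.56, 10.45 and 11.61 in Q50, and 9.86, 9.66 and 10.44 in Q111. It rose by 1.01 (SE 0.14) while its receptor gene Fgfr1, on chromosome 8, fell. The nuclear receptor Nr0b1 rose by 1.10 (SE 0.17), the AKT coactivator Tcl1 by 0.89 (SE 0.15), the nuclear receptor Esrrb by 0.82 (SE 0.16) and the Krüppel-like factor Klf4 by 0.62 (SE 0.12).

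Klf4 held 11.26, 11.41 and 11.89 in Q20, 11.63, 11.23 and 12.13 in Q50, and 11.33, 11.28 and 11.91 in Q111. Replicate 3 was highest in each line, yet under the control mean of 12.75 ± 0.12 (SD, n = 6). Esrrb and Tcl1 likewise stayed under their control means of 12.21 and 10.41 on every replicate 3 array but 1 (Q50, 10.60 for Tcl1). Fgf4 and Nr0b1 had replicate 3 means of 10.89 and 11.62 beside control means of 10.49 and 11.47. By array, Nr0b1 lay above its control mean in Q50 alone (12.71, with 11.09 in Q20 and 11.07 in Q111). Fgf4 lay above it in Q20 and Q50 (10.60 and 11.61) and just under it in Q111 (10.44). The core factors differed little. Pou5f1 lay between 14.37 and 15.14 on the 9 arrays, Sox2 between 13.82 and 14.39, and Nanog between 13.27 and 14.43, all far above the filter. Their differences of 0.27, 0.08 and 0.47 were not called. Tbx3 differed by 1.59 (SE 0.33) on its brightest probe set, which was not called, and by 3.19 on its other one, which was. Klf2, which lies on chromosome 8, differed by -0.29.

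Markers of the later, primed epiblast did not share a direction. None of 13 was called, and 5 stood above 0, beside 56.5% over all genes. The list's median was 0.34 in Q20, -0.90 in Q50 and -0.13 in Q111. Otx2, a driver of that state, was higher in replicate 3 of Q20 (11.12 against 9.55 and 9.91) and lower in that of Q50 (8.51 against 10.67 and 10.26). The pooled median of -0.33 ranged from -0.64 to -0.04 when single arrays were left out.

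Genes of the contractile actin cytoskeleton, which serum and stretch induce through the factor SRF, were lower in replicate 3 of Q20 and Q50 and near level in Q111. Of 19 tested, 1 was called lower and 0 higher, beside 2.16% called lower over all genes. Of the 19, 17 stood below 0, beside 56.5% above 0 over all genes, and the medians were -0.80, -0.73 and -0.04. In Q91, where chromosome 8 as a whole did not differ between replicates, the median was -0.66 and 2 of 19 stood above 0. The list's mean log2 value in Q91 was 10.79, 12.11 and 10.72 in replicates 1 to 3. Replicate 2 thus stood high there, and replicate 3 was close to replicate 1. The called gene was Tpm4, a tropomyosin on chromosome 8, with 12.78, 12.75 and 11.11 in Q20, 11.60, 12.71 and 10.81 in Q50, and 12.58, 12.60 and 11.79 in Q111. Replicate 3 was nearer the control mean of 10.98 each time. Tpm1, a tropomyosin outside chromosome 8, differed by -1.39 (SE 0.33) and Tagln, an actin-binding protein, by -1.74 (SE 0.57), without being called.

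Fibroblast markers were scored because feeder cells can be carried into such RNA. Of 25 on the array, 13 were tested, 1 was called higher (Thy1) and 0 lower, beside 1.18% called higher over all genes. Of the 13, 12 stood below 0 with a median of -1.05, beside 56.5% above 0 over all genes. By line the medians were -1.68, -0.53 and -0.06, and the pooled one ran from -1.53 to -0.48 when single arrays were left out. In Q91, where chromosome 8 as a whole did not differ between replicates, the median was -0.89 and 0 of 13 stood above 0. Col1a1, the main fibroblast collagen, was at 5.97 in replicate 3 of Q20 and at 8.97 or above in its other replicates. It held 3.99, 4.53 and 3.54 in Q50, and 8.62, 8.97 and 7.62 in Q111. It was thus high in replicates 1 and 2 of Q20 and Q111, and near the control mean of 3.73 on all arrays of Q50. The summed linear level of the list ran from 11271 to 29255 in replicate 3, from 15396 to 42458 in replicates 1 and 2 and from 13468 to 17793 in the controls. Of the 25 markers, 15 were below a log2 value of 5 in replicate 3 and 16 in the other replicates. These levels moved in the same direction as the contractile genes, and their part in the differences was not tested. Fewer cells of a type and less RNA per cell cannot be told apart in such bulk samples.

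**Figure D5:**
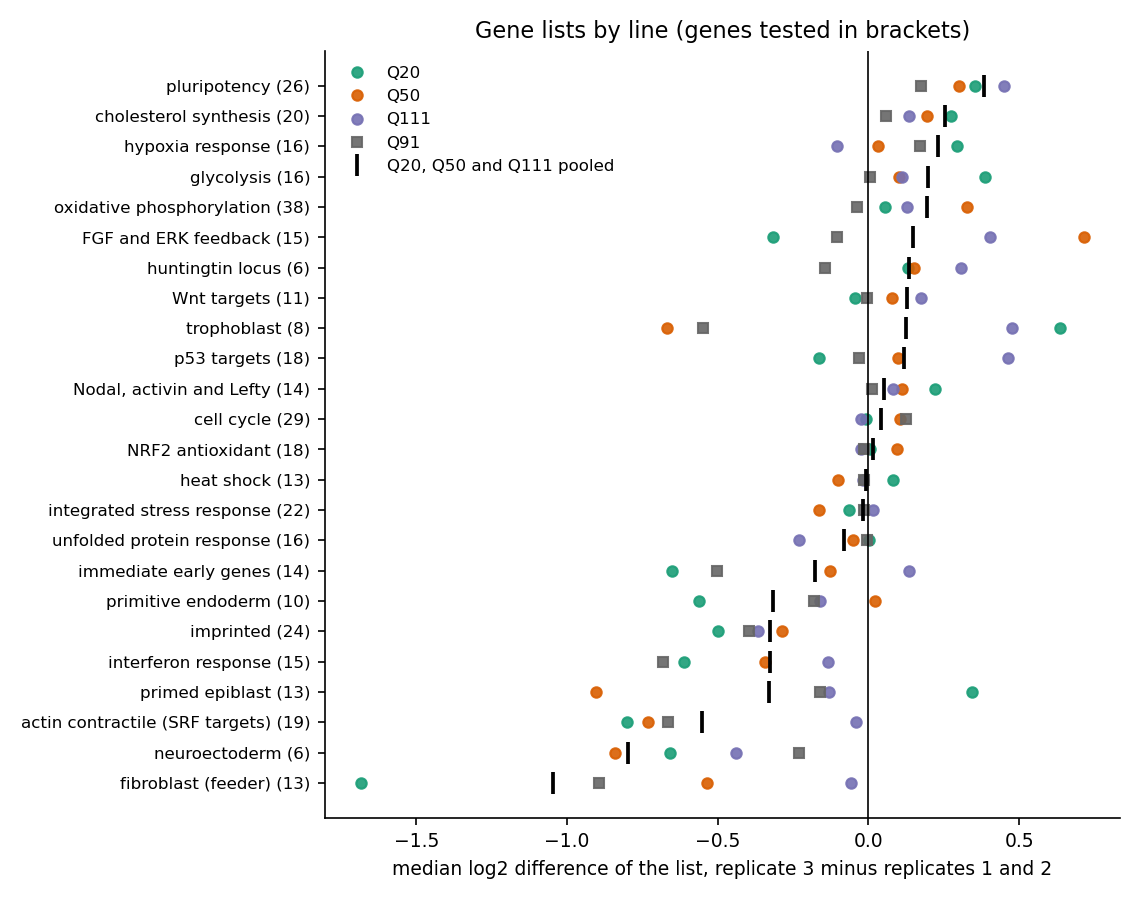
Median log2 difference, replicate 3 minus the mean of replicates 1 and 2, of gene lists with at least 6 tested genes, by line. The chromosome 8 role lists are left out, and the black tick is the median of the pooled difference. Pluripotency genes lie at 0.38 in the pooled difference. The fibroblast list runs from -1.68 in Q20 to -0.06 in Q111, with -0.89 in Q91.

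Among metabolic lists, most respiratory chain genes stood slightly higher. Of 38 oxidative phosphorylation genes, 36 stood above 0 with a median of 0.19, and 0 were called. Over all genes 56.5% stood above 0 with a median of 0.05, and 3.33% were called. The medians of the list were 0.06 in Q20, 0.33 in Q50, 0.13 in Q111 and -0.04 in Q91. Those over all genes were -0.01, 0.05, 0.05 and -0.02 in the same order. Cox6c, a subunit of cytochrome c oxidase, differed by 0.33 (SE 0.10). Cox4i1, another subunit of the same enzyme, lies on chromosome 8 and differed by -0.27 (SE 0.11), and it was the only gene of the list below both other replicates in every line. Of 20 cholesterol synthesis genes, 16 stood above 0 with a median of 0.25, and of 16 glycolysis genes 15 with a median of 0.20, again with 0 called. Insig1, a sterol sensor, differed by 0.70 (SE 0.15).

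Imprinted genes, expressed from 1 parental copy and often unstable in cultured stem cells, stood low. Of 24 tested, 19 were below 0 with a median of -0.33, and 0 were called. Over all genes 56.5% stood above 0, with a median of 0.05. The median of the imprinted genes was -0.50 in Q20, -0.29 in Q50, -0.37 in Q111 and -0.40 in Q91. Nnat, a neuronatin gene expressed from the paternal copy, held 11.08, 11.30 and 9.16 in Q20, 5.62, 10.34 and 3.64 in Q50, and 11.33, 11.42 and 8.62 in Q111. Its 2 other Q50 arrays lay far apart, and the pooled difference of -3.04 had an SE of 0.93. Peg10, an imprinted gene derived from a retrotransposon, differed by -1.52 (SE 0.52). The 6 tested neuroectoderm markers, 2 of them on chromosome 8, stood below 0 with a median of -0.80 and 0 called, and 2 of the 6 were below both other replicates in every line.

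Stress and signalling lists gave few calls, most of them through a member on chromosome 8. Over all genes 2.16% were called lower and 1.18% higher, and of the chromosome 8 genes 29.4% were called lower. The unfolded protein response had 1 call among 16 genes (Herpud1), the heat shock list 1 of 13 (Dnajb1), the NRF2 list 1 of 18 (Gsr), the immediate early list 1 of 14 (Ier2) and the interferon list 1 of 15 (Psmb10), all lower and all on chromosome 8. These lists held 2, 1, 3, 3 and 2 tested chromosome 8 genes, in that order. The lists for p53 targets (18 genes), the integrated stress response (22), hypoxia (16), Wnt targets (11) and Nodal signalling (14) had 0 calls. The list for FGF and ERK feedback (15) had Fgf4 higher and Fgfr1 lower. Trophoblast (8) and mesoderm (4) markers had 0 calls, and primitive endoderm markers 1 of 10, the receptor Lrp2, which fell by 0.75 (SE 0.14). Of 29 cell cycle genes, Ccnd3, a D-type cyclin, was called and rose by 0.76 (SE 0.15). Htt itself differed by 0.14 (SE 0.16), with 0.21 in Q20, -0.08 in Q50 and 0.30 in Q111, and was not called, nor were the 5 other tested genes of its neighbourhood.

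The replicate 3 difference of Q91 was also set against the shared one of Q20, Q50 and Q111. The other side of this comparison is the contrast that chose the arrays, so it is not independent of the split. Under limma with Benjamini-Hochberg adjustment over all 17980 probe sets it gave 0 calls (0%), with 1182 at an unadjusted p under 0.05. Within Q91 alone limma gave 0 calls between replicate 3 and replicates 1 and 2, with 731 at an unadjusted p under 0.05. Only 1 array stood against 2 in that line, so a lack of calls does not show that the lines were alike.

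Likeness between lines was not found for replicate 3 alone. Over 9511 genes, the deviations of the replicate 3 arrays from their line means correlated between lines at 0.32 (Q20 and Q50), 0.42 (Q20 and Q111) and 0.17 (Q50 and Q111), as Pearson's r. For the replicate 2 arrays the same pairs gave 0.45, 0.42 and 0.36, and for the replicate 1 arrays -0.25, 0.37 and -0.29. These values are across genes, which are not independent replicates, and the 3 deviations of a line sum to 0.

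Between the lines, the replicate 3 difference varied past the threshold for few probe sets. The limma F-test of the line by replicate 3 term called 17 of 17980 probe sets (0.0945%) after Benjamini-Hochberg adjustment, with 3708 at an unadjusted p under 0.05, and these stood for 13 named genes. Several of these genes stood apart on Q50 replicate 3 alone. Srgn, a proteoglycan of secretory granules, was at 10.09 there and between 3.74 and 4.71 on the other 8 arrays. Hopx, a small homeodomain protein, was at 10.69 against 7.61 to 7.98, and Kdelr3, a receptor that returns proteins to the endoplasmic reticulum, at 9.55 against 5.89 to 6.52. Eif2s3y, a Y-linked translation factor gene, was at 4.55 in Q50 replicate 3, against 11.01 and 11.47 in its other replicates and 11.52 to 12.64 in Q20 and Q111. Uty, also Y-linked, was at 3.76 there against 6.97 and 8.34. Both low values lie under a log2 value of 5. Scml2, an X-linked Polycomb-related gene, was instead high in Q111 replicate 3, at 9.77 against 3.71 to 4.29 on the other 8 arrays, and at 8.56 in Q91 replicate 1. The low values of Srgn and Scml2 also lie under a log2 value of 5, so the size of these differences is not settled. All genes named here were picked for their values. The count was 0 without Q20 replicate 1 or 2 or Q111 replicate 1 or 2, 1 without Q50 replicate 3, 190 without Q20 replicate 3, 536 without Q50 replicate 1 and 1898 without Q50 replicate 2.

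Signs of RNA quality moved with that array too. The 3' minus 5' probe difference of Actb, which grows as RNA breaks down, was 1.54 on Q50 replicate 3 and between 0.75 and 1.03 on the other 23 arrays, with 0.92 and 0.97 on replicate 3 of Q20 and Q111. Its part in the Q50 values was not tested. The share of probe sets at a log2 value of 5 or above was 37.2% to 38.0% on the 9 arrays. Without Q50, replicate 3 of Q20 and Q111 lay below both other replicates in both lines for 455 chromosome 8 genes (84.1%) and for 1499 genes elsewhere (16.7%).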

How the data were processed

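Total RNA of 24 mouse embryonic stem cell samples was measured on 1-colour Affymetrix arrays, 1 per sample. The authors deposited log2 values made with GCRMA, per the submitters' processing notes (version not given in the sources used here). Whether all arrays were normalised together is not stated there. With no counts behind array values, precision is limited by how many arrays there are. Of 45037 probe sets, 34945 carried 1 gene symbol, 932 several and 9160 none. Each gene took its probe set with the highest mean, and RefSeq (GRCm38.p6) gave chromosomes. Groups came from the titles. limma 3.58.1 in R 4.3.3 was fitted to 9 arrays with line as a block, after the script was tested on simulated data, and Python 3.11.15 gave medians. Named outside chromosome 8 were the 10 largest called rises and falls that lay beyond both other replicates in every line. On chromosome 8 they were members of role lists and the 5 highest and lowest differences, and from each other list the members with the smallest p. The arrays and lists were chosen with earlier results of these data known. P-values measure only the spread between arrays. Alternatives were other normalisations, filters, array sets and leaving out each array.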

Additional observations from a re-analysis of the deposited data

Results flagged for a closer look

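Control replicate 4 stood apart from the 5 other controls on chromosome 8. Its median level over the control mean was -0.30, against 0.00 to 0.10 in the others, and -0.17 when set against its own genes outside chromosome 8, against -0.01 to 0.07. The threshold used marks about 1 of 20 groups by chance. It was applied to 4 chromosomes in 2 groups on 2 scales, and these were the only marks.

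The chromosome 1 difference of replicate 3 went opposite ways, with a median of 0.68 in Q111 and -0.19 in Q50, each from 1 array against 2. The difference between these lines was not tested over samples.

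The replicate 3 difference varied among Q20, Q50 and Q111 for 17 probe sets in the limma F-test. Eif2s3y differed by -6.69 in Q50, where Q20 and Q111 were at -0.03 and -0.97. Its value of 4.55 on Q50 replicate 3 lies under a log2 value of 5, where signal was not told from background, so the size is not settled.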

How the results depend on the processing

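The chromosome 8 median of -0.52 was -0.29 with no filter on low values, -0.38 with Q91 as a 4th line, -0.60 with each array set against its own median outside chromosome 8, and -0.54 to -0.48 when arrays were left out in turn. The replicate 3 level over the control mean was -0.46 after quantile normalisation, -0.49 after centring each array and -0.20 with no filter (-0.41 to -0.36 with arrays left out). That of replicates 1 and 2 was 0.019, -0.015 and -0.011 in the same order, 0.15 as a mean over genes, and 0.08 to 0.10 with arrays left out. The 563 called probe sets became 1853 with all 24 arrays in the fit, 18 with Q91 as a 4th line, 152 at 2-fold or more, 158 with 1 probe set per gene outside chromosome 8, 238 outside chromosomes 1, 8 and 11 (chosen after seeing the data), and 0 to 1086 with arrays left out. The 17 probe sets that varied among lines became 525 with no filter, 4 with a log2 of 6 on 9 arrays, and 0 to 1898 with arrays left out. The Q91 comparison gave 1 with no filter and 0 without each of the other 11 arrays in turn (without Q91 replicate 3 it cannot be made). With Q20 and Q111 alone, 1499 genes outside chromosome 8 lay below and 2216 above. The cause of these shifts was not tested. For the 20 genes named by size outside chromosome 8, the alternatives kept the call in 117 cases, lost it in 175 and reversed 0. For 42 other called genes of the lists and chromosome 8 these counts were 268, 362 and 0. Genes that were not called were not rerun, except Htt, which stayed uncalled in 15 of 15.

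No paired analysis was possible because the replicate number is itself the factor compared and cannot also be a block. The matching within lines was made through line as a block.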
